A study of Mus musculus with 4 samples.

Results

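The 9 genes described here encode surface proteins through which a dendritic cell (DC) exchanges activating or restraining signals with T cells and other immune cells: Cd40, Cd80, Cd83, Cd86, Icosl, Cd274, Pdcd1lg2, Tnfsf4 and Cd200. They were chosen by symbol, as all probe sets annotated to exactly 1 of these names, which gave 16 probe sets for 9 of the 18193 genes with a named probe set. The study measured transcripts on 4 single-channel oligonucleotide arrays of mouse DCs grown from bone marrow for 6 to 7 days with the growth factor GM-CSF at 20 ng/mL and enriched for the integrin CD11c. LXR-DKO cells lack LXRα as well as LXRβ, the liver X receptors, nuclear receptors that respond to oxysterols, and WT cells carry both; the strain was given as C57/BL6 for every sample. The 4 groups were LXR-DKO LPS, LXR-DKO control, WT LPS and WT control. All groups were then kept for 24 h with GM-CSF at 10 ng/mL, and the LPS groups also received lipopolysaccharide, a bacterial ligand of Toll-like receptor 4, at 100 ng/mL as a maturation stimulus. The labels give neither the age or sex of the mice nor the number of mice behind a culture, and they name no cell type to which the deletion was restricted. Each group had 1 array. No difference can therefore be set against replicates, no p-value was computed, and the precision of every value is limited by the number of arrays.

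T cells need a signal through their antigen receptor and a further one from ligands on the DC. CD80 and CD86 bind the activating receptor CD28 and the inhibitory receptor CTLA-4, the ICOS ligand and the OX40 ligand sustain helper and memory T cells, and CD40 on the DC receives the helper signal of CD40 ligand. PD-L1 and PD-L2 restrain T cells through PD-1, and CD200 restrains myeloid cells through CD200R. LPS-matured DCs are known for high surface CD40, CD80, CD83 and CD86. In RNA of such an enriched cell population, fewer cells of a type and less RNA per cell cannot be told apart.

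Promoter sequence from RefSeq (build GRCm38.p6) was matched by symbol for 5 of the 9 genes, Cd80, Icosl, Cd274, Pdcd1lg2 and Cd200. The windows of Icosl, at least 2-fold higher in LXR-DKO in both conditions, of Cd200, which differed most with LPS in LXR-DKO, and of the neighbouring genes Cd274 and Pdcd1lg2 are shown as the 250 bases before the start site, 5′ to 3′ on the strand of the gene. Capitals mark matches to the kappaB consensus, the motif of NF-kappaB, on either strand.
Icosl (chr10:78069118-78069367, plus strand): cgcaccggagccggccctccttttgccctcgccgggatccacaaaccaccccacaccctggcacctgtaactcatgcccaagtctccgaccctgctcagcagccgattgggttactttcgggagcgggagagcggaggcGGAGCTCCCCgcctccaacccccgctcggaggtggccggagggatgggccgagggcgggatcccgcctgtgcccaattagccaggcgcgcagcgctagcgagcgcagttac
Cd200 (chr16:45409054-45409303, minus strand): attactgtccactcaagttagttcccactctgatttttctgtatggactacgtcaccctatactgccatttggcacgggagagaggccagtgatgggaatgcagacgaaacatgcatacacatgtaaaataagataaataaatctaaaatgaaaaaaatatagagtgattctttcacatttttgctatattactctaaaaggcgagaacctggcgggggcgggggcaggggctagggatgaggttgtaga
Cd274 (chr19:29367188-29367437, plus strand): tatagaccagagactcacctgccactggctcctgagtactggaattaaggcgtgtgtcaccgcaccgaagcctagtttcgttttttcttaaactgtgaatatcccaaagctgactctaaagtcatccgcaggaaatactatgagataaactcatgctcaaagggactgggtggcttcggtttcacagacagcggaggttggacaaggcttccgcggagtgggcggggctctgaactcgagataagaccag
Pdcd1lg2 (chr19:29410669-29410918, plus strand): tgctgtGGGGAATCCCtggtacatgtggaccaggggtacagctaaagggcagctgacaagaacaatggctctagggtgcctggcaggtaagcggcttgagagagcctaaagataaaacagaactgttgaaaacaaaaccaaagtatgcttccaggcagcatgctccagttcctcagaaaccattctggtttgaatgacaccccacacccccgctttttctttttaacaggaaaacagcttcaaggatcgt

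The kappaB consensus was found in 2 of the 5 windows, which run to 50 bases after the start site, and in 8.46% of all 32851 promoter windows of that length. In Icosl the match began 111 bases before the start site and lay on the other strand. In Pdcd1lg2 it began 244 bases before the start site and the consensus matched on both strands. Cd274 and Pdcd1lg2 lie side by side on chromosome 19 with 0 protein-coding genes between them, and the window of Cd274 held no match. Neither the core of the interferon-stimulated response element, a pair of GAAA blocks with 2 bases between them, nor a direct repeat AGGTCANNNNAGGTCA with at most 1 mismatch per copy, the kind of site that LXRs bind, was found in the 5 windows on either strand, against 3.44% and 1.75% of all windows. No match says only that these letters are not in the window.

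Signals are MAS5 intensities on a linear scale, which the authors had brought to the same trimmed mean on every array. Values below 28.9, the median of all non-control signals, were treated as a floor, and 47.8% to 52.6% of the probe sets of an array reached it. Each gene was read from its brightest probe set, and a log2 ratio of 1 in size, or 2-fold, was the threshold for counting. All 9 genes reached the floor on all 4 arrays in that probe set, and 13 of the 16 probe sets did so. Where a gene had several probe sets, their log2 ratios varied with a pooled SD of 0.54 for LXR-DKO over WT with LPS, 0.45 for LXR-DKO over WT with GM-CSF alone, 0.42 for the LPS response of LXR-DKO, 0.29 for that of WT and 0.43 for their difference. Each SD pools all genes with several probe sets that reached the floor on the arrays compared, and is not that of the 9 genes alone. It is the only error estimated within the arrays and leaves out variation between cultures.

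The arrays also differed in ways that bear on every genotype ratio. Nr1h3, which encodes LXRα, had signals of 27.0 in LXR-DKO LPS, 40.4 in LXR-DKO control, 54.5 in WT LPS and 108.6 in WT control, and the position of its probe set relative to the deletion is not known here. Xist, the X-inactivation RNA, had signals of 2090.4 and 2750.0 on the LXR-DKO arrays against 22.7 and 30.8 on the WT arrays. The Y-linked gene Eif2s3y had 384.3 and 279.6 against 721.0 and 736.6, and Uty had 128.6 and 69.7 against 291.1 and 300.9. Kdm5d, also Y-linked, had 93.2 and 56.1 against 98.1 and 126.2, nearly equal with LPS. High Xist thus stood beside Y-linked signals above the floor on the LXR-DKO arrays. The sex of the mice and the genotype cannot be told apart. The geometric mean of the poly-A spike controls, added to the RNA before labelling, was 335.5 and 249.4 on the LXR-DKO arrays against 509.0 and 482.3 on the WT arrays. The 5′ probe set of 18S ribosomal RNA had signals of 69.5 and 77.4 on the LXR-DKO arrays against 2025.2 and 510.6 on the WT arrays. Itgax, which encodes CD11c, was bright on every array at 3848.1 to 6093.0, as was the macrophage gene Adgre1 at 4231.5 to 7262.8. The DC transcription factor gene Zbtb46 had 393.3 and 305.9 in LXR-DKO and 29.0 and 39.4 in WT, at the floor or little above it. The 10 named DC markers, Itgax and Zbtb46 among them, summed to 10752.1 and 9892.7 in LXR-DKO against 7295.4 and 5895.0 in WT. With LPS 6 of 9 measured passed 2-fold upward, without LPS 4 of 8, and 0 were lower by as much. Of all genes measured, 17.8% were higher with LPS and 12.7% without, and 8.76% and 9.28% lower. Among these DC markers, the widest gap with LPS was that of Itgae, at 1874.8 and 1354.9 against 26.9 and 53.5. Log2 ratios below 0 were those of Itgax, -0.66 with LPS and -0.19 without, and Kit, -0.90 without. The share of higher genes among all those counted depended on scaling. With LPS, 67.0% of genes counted between the genotypes were higher in LXR-DKO, but 47.2% after scaling to the same 75th percentile and 91.2% after scaling to the poly-A controls. With GM-CSF alone the shares were 57.8%, 44.1% and 93.9%.

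With LPS, LXR-DKO exceeded WT by at least 2-fold for 6 of the 9 genes and 0 were lower by as much, where 17.8% of 12014 genes measured were higher and 8.76% lower. The median log2 ratio of the 9 was 1.64, against 0.15 over all genes. With GM-CSF alone, 4 were at least 2-fold higher and 2 lower, where 12.7% of 11728 genes were higher and 9.28% lower, and the medians were 0.29 and 0.045. The 4 genes Cd40, Cd83, Cd86 and Icosl passed 2-fold in both conditions. In LXR-DKO LPS, 7 of the 9 had their highest signal; the exceptions were Icosl, highest in LXR-DKO control, and Cd274, highest in WT LPS.

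**Figure D1:**
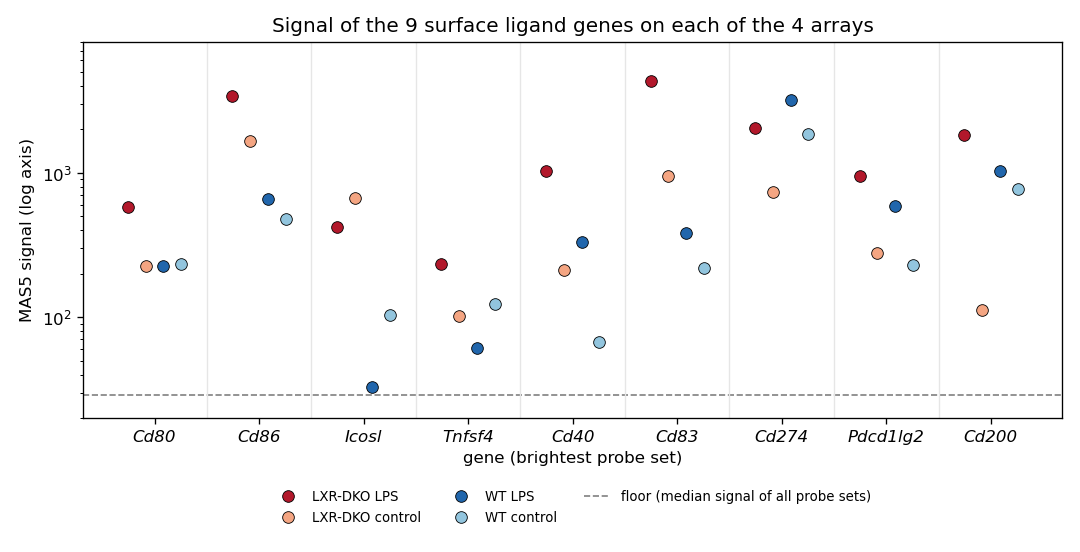
MAS5 signal (log axis) of the brightest probe set of each of the 9 genes, 1 point per array, with LXR-DKO LPS, LXR-DKO control, WT LPS and WT control from left to right and the floor of 28.9 as a dashed line. LXR-DKO LPS is the highest point for 7 of the 9 genes, and Icosl in WT LPS, at 33.0, is the point nearest to the floor.

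Of the CD28 ligands, Cd86 was higher in LXR-DKO in both conditions and Cd80 with LPS. Cd86 had signals of 3422.1 in LXR-DKO LPS, 1656.1 in LXR-DKO control, 656.7 in WT LPS and 481.8 in WT control. Both LXR-DKO arrays lay above both WT arrays, with log2 ratios of LXR-DKO over WT of 2.38 with LPS and 1.78 without. The other Cd86 probe set gave 3.46 and 2.12. With LPS, Cd86 was 2.07-fold higher in LXR-DKO, just past the threshold, and 1.36-fold in WT, where the other probe set had 243.6 with LPS and 252.5 without. Cd80 had signals of 576.2 in LXR-DKO LPS, 227.6 in LXR-DKO control, 226.6 in WT LPS and 234.2 in WT control, so that 1 array stood above 3 nearly equal ones. Its genotype log2 ratio stood at 1.35 with LPS and at -0.04 without. The probe sets of Cd80 did not give the same sizes. A second one had 748.4, 130.9, 123.6 and 103.9 in the same order of arrays, with a genotype log2 ratio of 2.60 with LPS and 0.33 without. Another, dimmer one had 268.7, 66.0, 36.2 and 26.1, with ratios of 2.89 and at least 1.19. The last stayed below the floor on every array.

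Icosl and Tnfsf4 encode the ligands of the T cell receptors ICOS and OX40. Icosl had signals of 422.6 in LXR-DKO LPS, 666.2 in LXR-DKO control, 33.0 in WT LPS and 104.1 in WT control. It was the only one of the 9 with a lower signal with LPS in both genotypes, by log2 ratios of -0.66 in LXR-DKO and -1.66 in WT. Its genotype ratio was 12.8-fold with LPS and 6.40-fold without, and the WT LPS signal behind the first is close to the floor. Both WT signals lie below a higher floor of 177.4, the 75th percentile of all signals, and with it were set to that value. The Icosl log2 ratios of 3.68 and 2.68 therefore had to shrink, to at least 1.25 and 1.91. A second Icosl probe set was below the floor on all arrays. Tnfsf4 had signals of 233.6 in LXR-DKO LPS, 101.0 in LXR-DKO control, 61.5 in WT LPS and 124.0 in WT control. The LPS array was the brighter one in LXR-DKO and the dimmer one in WT, at log2 ratios of 1.21 and -1.01. Between genotypes Tnfsf4 stood at 1.93 with LPS and at -0.30 without LPS. With that higher floor, above its WT LPS signal, the first became at least 0.40.

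Cd40 and Cd83 were higher in LXR-DKO in both conditions but differed in their response to LPS. Cd40, the receptor that lets helper T cells license the DC, had signals of 1029.0 in LXR-DKO LPS, 211.4 in LXR-DKO control, 331.1 in WT LPS and 67.4 in WT control. LPS and genotype each went with a similar step: Cd40 was 4.87-fold higher with LPS in LXR-DKO and 4.91-fold in WT, and 3.11-fold higher in LXR-DKO with LPS and 3.14-fold without. With the higher floor, above the WT control signal, the last of these became a log2 ratio of at least 0.25. The log2 LPS responses differed by -0.01. The other Cd40 probe sets had LPS log2 ratios of 2.73 and 2.64 in LXR-DKO and 2.03 and 2.71 in WT. Cd83, a maturation marker that protects MHC class II and CD86 from the ubiquitin ligase MARCH1, had signals of 4335.3 in LXR-DKO LPS, 956.5 in LXR-DKO control, 384.9 in WT LPS and 217.8 in WT control. Every LXR-DKO value lay above every WT value. The genotype log2 ratio stood at 3.49 with LPS and at 2.13 without, and that of LPS over control was 2.18 in LXR-DKO and 0.82 in WT.

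The PD-1 ligand genes, though neighbours in the genome, stood apart in the genotype comparison. Cd274, which encodes PD-L1, had signals of 2053.5 in LXR-DKO LPS, 730.0 in LXR-DKO control, 3211.7 in WT LPS and 1846.3 in WT control. It was the only one of the 9 with lower signals in LXR-DKO in both conditions, at log2 ratios of -0.65 with LPS and -1.34 without. These stayed below 0 under the 10 alternative settings, but were -0.04 and -0.39 after scaling to the poly-A controls. Pdcd1lg2, which encodes PD-L2, had signals of 949.9 in LXR-DKO LPS, 280.2 in LXR-DKO control, 593.1 in WT LPS and 228.9 in WT control, and its genotype log2 ratios of 0.68 and 0.29 did not reach the threshold, except after poly-A scaling, with 1.28 and 1.24. Both genes were brighter with LPS in either genotype. The log2 LPS ratio was 1.49 in LXR-DKO and 0.80 in WT for Cd274, and 1.76 and 1.37 for Pdcd1lg2.

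Cd200 showed the widest step of the 9 with LPS. Its signal was 1815.8 in LXR-DKO LPS, 112.5 in LXR-DKO control, 1023.2 in WT LPS and 775.0 in WT control. The LXR-DKO control array stood alone below the other 3. Cd200 was 16.1-fold higher with LPS in LXR-DKO and 1.32-fold in WT. Between genotypes its log2 ratio was therefore 0.83 with LPS, or 1.15 and 1.43 after scaling to the hybridisation and poly-A controls, and -2.78 without.

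**Figure D2:**
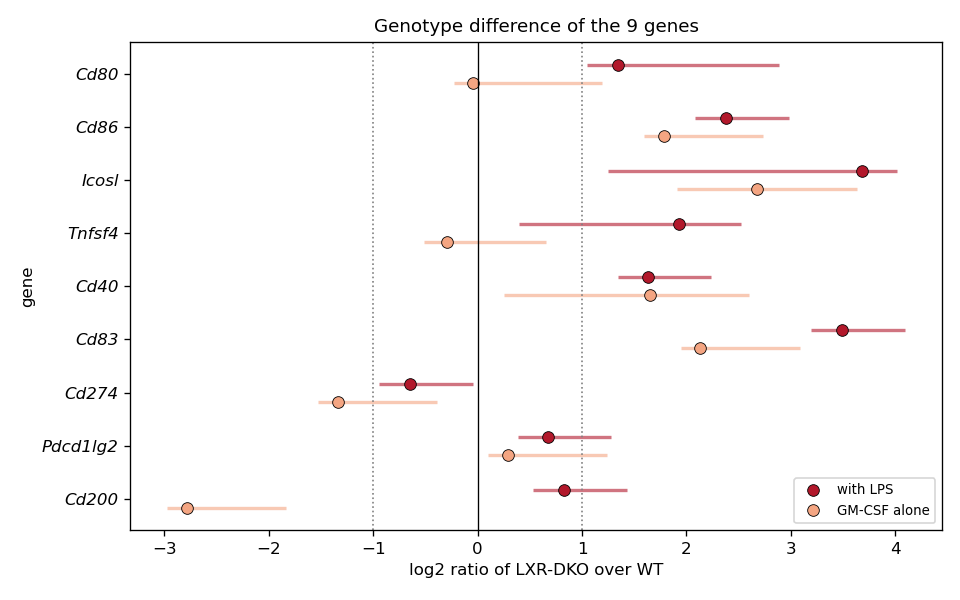
Log2 ratio of LXR-DKO over WT for each of the 9 genes with LPS (dark points, upper) and with GM-CSF alone (pale points, lower); lines span the main value and up to 10 alternative settings, and dotted lines mark 2-fold. With LPS 8 of the 9 points lie above 0 and Cd274 lies below it at -0.65, while without LPS Cd200 is lowest at -2.78.

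In LXR-DKO, 8 of the 9 signals were at least 2-fold above the control with LPS and 0 were lower by as much, where 6.23% of 11793 genes were higher and 1.82% lower. In WT, 2 of 9 were higher, Cd40 and Pdcd1lg2, and 2 were lower, Icosl and Tnfsf4, where 2.93% of 11449 genes were higher and 4.79% lower. Cd40 and Pdcd1lg2 were thus the 2 genes at least 2-fold higher with LPS in both genotypes. The median log2 LPS ratio was 1.49 in LXR-DKO and 0.45 in WT, against 0.018 and -0.054 over all genes. Some counts rest on small margins: Tnfsf4 in WT, at -1.01, did not reach 2-fold under 4 of the 9 alternatives that gave it a value, and in LXR-DKO the log2 ratio of Cd86, at 1.05, was 0.62 after poly-A scaling and that of Cd80 0.91. With the floor at 177.4, above the control signals concerned, Tnfsf4 stood at no less than 0.40, given as at least 0.40, in LXR-DKO and Cd40 at at least 0.90 in WT.

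On the log2 scale, the LPS response of LXR-DKO minus that of WT was at least 1 for 5 of the 9 genes and at most -1 for 0, where 7.61% of 12478 genes were at least 1 and 2.07% at most -1. It was 3.61 for Cd200, 2.22 for Tnfsf4, 1.39 for Cd80, 1.36 for Cd83 and 1.001 for Icosl, the last on the threshold itself. Cd274 stood at 0.69, Cd86 at 0.60 and Pdcd1lg2 at 0.39, below the threshold, and Cd40 at -0.01. With the higher floor, which lies above at least 1 WT signal of each of these genes, Tnfsf4 stood at 0.40, Cd40 at 1.38 and Icosl at -0.66. For Icosl the positive difference means a smaller step down in LXR-DKO, not a step up.

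**Figure D3:**
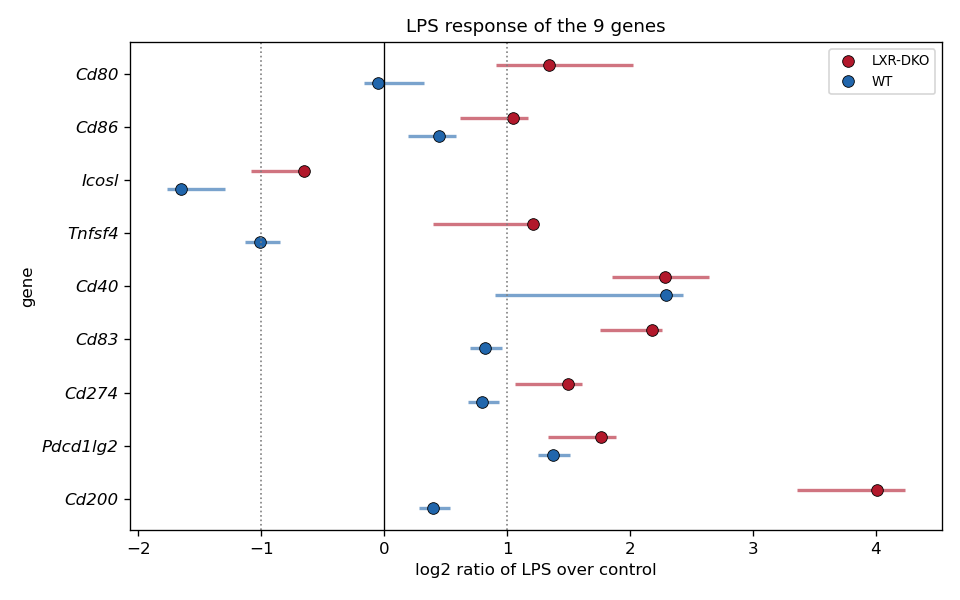
Log2 ratio of LPS over control for each of the 9 genes in LXR-DKO (red points, upper) and WT (blue points, lower); lines span the main value and up to 10 alternative settings, and dotted lines mark 2-fold. The points of Cd40 coincide at 2.28 and 2.30, those of Tnfsf4 lie on opposite sides of 0, and Cd200 in LXR-DKO is farthest out at 4.01.

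The genes most like each member were found by the distance between log2 signals centred on the mean of the 4 arrays, among the 9346 genes that reached the floor on each of the 4 arrays and had no provisional name. This likeness is a description over 4 points. Gpr183, which encodes an oxysterol receptor, was nearest to Icosl at a distance of 0.078, with signals of 808.9 in LXR-DKO LPS, 1365.0 in LXR-DKO control, 63.5 in WT LPS and 205.7 in WT control. Cd69, an early activation antigen gene, was nearest to Cd83 at 0.10, with 2626.9, 567.2, 214.8 and 122.3 in the same order. Ly96, which encodes the LPS co-receptor MD-2, was nearest to Cd274 at 0.12. For Cd200 the nearest was the scavenger receptor gene Marco at 0.76, and for Cd40 it was Isg20, an interferon-induced exonuclease gene, at 0.57. Among the 9 genes themselves, Cd80 and Tnfsf4 were closest at 0.71 and Icosl and Cd200 farthest at 5.50.

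Other costimulatory and coinhibitory ligands did not go one way between the genotypes. With LPS, 6 of 17 measured genes of that list passed 2-fold upward in LXR-DKO and 1 was lower, with a median log2 ratio of 0.26, and with GM-CSF alone 4 were higher and 4 lower. Over all genes, 17.8% were higher and 8.76% lower with LPS, and 12.7% and 9.28% with GM-CSF alone. Tnfsf8, the CD30 ligand gene, had signals of 295.0 in LXR-DKO LPS, 820.7 in LXR-DKO control, 4.2 in WT LPS and 27.6 in WT control. Btla, an inhibitory receptor gene, had 706.7, 229.2, 71.9 and 72.5, and the CD27 ligand gene Cd70 had 217.6, 30.4, 14.2 and 18.9 in the same order. Cd276, which encodes B7-H3, was dimmer in LXR-DKO, at 24.4 and 3.2 against 185.1 and 189.7 in WT.

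Of the CD40 and NF-kappaB signalling genes and regulators, 9 of 21 measured were higher by at least 2-fold in LXR-DKO with LPS. Only 1 was lower, and 8 were higher and 2 lower with GM-CSF alone. For this list and the next, the shares over all genes were 17.8% higher and 8.76% lower with LPS. They were 12.7% and 9.28% with GM-CSF alone. Relb, the NF-kappaB subunit gene tied to DC maturation, had genotype log2 ratios of 2.64 with LPS and 2.20 without. Traf1, a CD40 adaptor gene, had 2.11 and 2.45, and the DC factor gene Irf8 had 3.15 and 1.18. Irf4 had 2.10 and 2.78, Map3k14 had 2.47 and 1.44, and Bcl3 had 2.21 and 1.74. Marchf1, the ubiquitin ligase gene that takes MHC class II and CD86 off the cell surface, stood at -1.49 and -1.01, and Tnfaip3, the NF-kappaB brake A20, stood at -0.25 and -1.22. Of the other DC maturation genes, 17 of 19 measured passed 2-fold upward in LXR-DKO with LPS and 0 were lower, with a median of 2.05, and 10 of 18 were higher and 1 lower with GM-CSF alone. All lists were chosen with earlier results of these data known, so these counts and medians are descriptions only. Their largest ratio with LPS was that of Ccr7, the lymph node homing receptor gene, at 4.82.

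**Figure D4:**
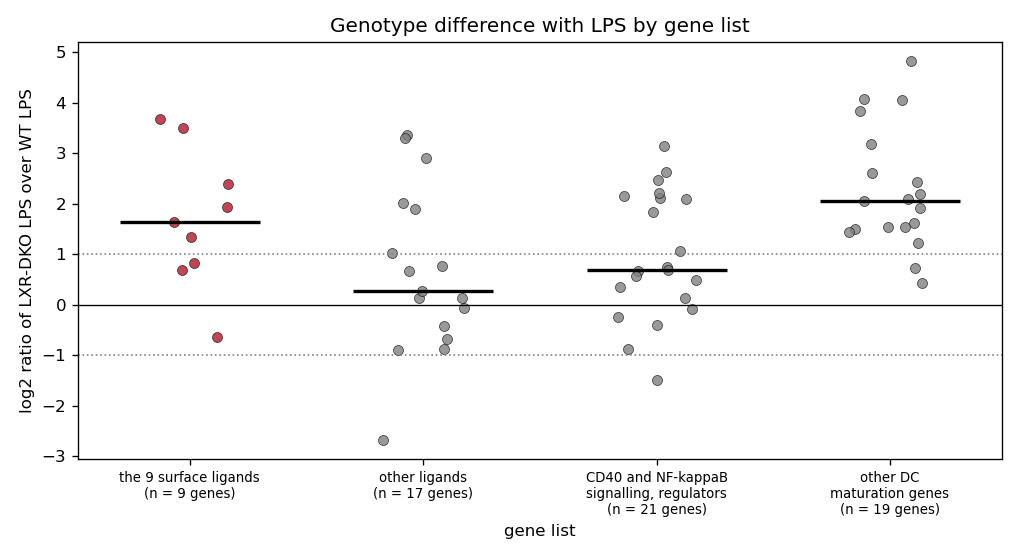
Log2 ratio of LXR-DKO LPS over WT LPS for each measured gene of 4 lists, with the list median as a black bar and 2-fold as dotted lines; points are spread sideways for legibility only. The medians are 1.64 for the 9 surface ligands, 0.26 for other ligands, 0.69 for signalling genes and regulators and 2.05 for other DC maturation genes. The lists were chosen with earlier results of these data known.

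Markers of other cell types moved with the genotype too, and their part in the ligand values was not tested. B cells, which also express Cd40, Cd80, Cd86 and Icosl, were represented by 11 named markers whose summed signal was 3022.1 in LXR-DKO LPS, 1090.5 in LXR-DKO control, 474.9 in WT LPS and 504.8 in WT control. With LPS 7 of 11 measured B cell markers were higher in LXR-DKO by at least 2-fold, and without LPS 5 of 10. Over all genes, 17.8% were higher with LPS and 12.7% without, and 8.76% and 9.28% lower. Ms4a1, which encodes CD20, had 851.0, 208.4, 19.1 and 20.5, and Cd79a had 397.7, 114.6, 1.2 and 4.9. Not all B cell markers followed. Cd22 had 249.4, 128.2, 264.1 and 213.3, at genotype log2 ratios of -0.08 with LPS and -0.73 without. Vpreb3 stood at 0.18 and -0.10, and Pax5 at 0.38 and 0.52. Of the 9 neutrophil and precursor markers, 7 were higher by at least 2-fold in LXR-DKO with LPS and 6 without, and 1 was lower in each condition. The lower one, the collagenase gene Mmp8, had 3769.1 and 3829.7 in LXR-DKO against 9716.4 and 7882.0 in WT. The list summed to 20593.3 and 21562.4 in LXR-DKO against 11772.2 and 9898.5 in WT, and without Mmp8 to 16824.2 and 17732.7 against 2055.8 and 2016.5. Mast cell, basophil and eosinophil markers summed to 3346.0 and 1958.8 against 775.1 and 577.6, with 8 of 9 and 6 of 9 higher. Macrophage and monocyte markers summed to 35838.8 and 40356.3 against 37421.7 and 25238.7. They went both ways, with 5 of 12 higher and 1 lower with LPS and 5 higher and 3 lower without. With LPS the log2 ratio was at least 6.54 for C1qa, at least 7.14 for C1qb and at least 6.47 for C1qc. Without LPS it was at least 7.53, the largest of all genes, 5.86 and 7.02. The lower ones were Cd68, at -2.06 with LPS and -1.31 without, and without LPS also Mrc1 at -2.36 and Marco at -3.09. Plasmacytoid DC markers summed to 2901.0 and 1208.2 in LXR-DKO against 3910.5 and 1028.3 in WT, and past 2-fold 3 of 6 lay above WT and 1 below it with LPS, and without LPS 2 of 5 lay above and 0 below. The lower one, the interferon-induced gene Bst2, had 1447.8 in LXR-DKO LPS, 469.7 in LXR-DKO control, 3509.9 in WT LPS and 589.7 in WT control. Without Bst2 the sums were 1453.2 and 738.5 in LXR-DKO against 400.6 and 438.6 in WT. The 10 named T and NK cell markers summed to 705.9 and 284.6 in LXR-DKO against 286.0 and 233.9 in WT. With LPS 5 of the 10 reached the floor in LXR-DKO and 2 in WT, and without LPS 2 and 1. Thy1, the largest term of the sum on every array, had 504.4 and 130.0 in LXR-DKO against 165.6 and 152.2 in WT. Cd3d, Cd3g and Cd2 reached the floor in LXR-DKO LPS alone, at 31.6, 29.3 and 35.1, while Cd3e, Cd4 and Cd8b1 were below it on every array.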

How the data were processed

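RNA of 4 mouse DC cultures was hybridised to 1 array each, as biotinylated cRNA made by the manufacturer's amplification procedure, per the labels' protocols. The deposited signals are linear intensity values, 1 for each probe set, computed with MAS5 per the submitters' processing notes; version and settings are not given in the sources used here. Of 45101 probe sets, 64 controls were left out, and 34945 of the other 45037 had 1 gene symbol in the platform annotation. Gene numbers matched RefSeq GRCm38.p6 for 34754, which changed 0 symbols.

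Signals were used as deposited, with the floor at the pooled median of 28.9. A gene entered a comparison if the floor was reached on 1 or more of the arrays compared. Lower values were set to the floor. Ratios with such a value are given as "at least", except in ranges over settings and in differences of responses. Ratios and counts were computed with Python 3.11.15 and pandas 2.3.3, and counting was tested on simulated data. No detection calls were used, so dim values have an unknown error, and no test was made.

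The 9 genes and all lists and rules were chosen with earlier results of these data known. Members of the ligand, signalling and maturation lists were named by size of ratio, up to 4 per comparison, and further ones to show both directions. Receptors and cell type markers were not named by size alone. Alternatives were 75th percentile scaling, quantile normalization, centring on the median ratio and scaling to hybridisation controls. Floors at the 25th percentile of 8.8 and the 75th of 177.4 were also used, as was log2 of the signal plus 16. Others were the median over probe sets, and plain probe sets only, those without a letter suffix in their name. Scaling to poly-A controls was added after seeing the data. Promoter motifs were searched on both strands.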

Additional observations from a re-analysis of the deposited data

Results flagged for a closer look

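Tnfsf4 had LPS responses of opposite sign in the genotypes, both larger than the spread between probe sets: the log2 ratio of LPS over control was 1.21 in LXR-DKO and -1.01 in WT. With 1 array per group the difference was not tested.

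Cd200 had genotype differences of opposite sign in the conditions: LXR-DKO over WT stood at 0.83 on the log2 scale with LPS and at -2.78 with GM-CSF alone. This difference was not tested either. Both genes have a single probe set, so no second probe set bears on these values.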

How the results depend on the processing

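No paired analysis was possible because each group had 1 array. Of 100 recounts of the 9 genes under the alternatives, 90 stayed within 1.5 times the main count. Some main counts were 0 and left 0 only with poly-A scaling, so the 90 say less about the other counts. With LPS in WT, the count of genes at least 2-fold lower was 2 and became 1 under 75th percentile scaling, quantile normalization, median ratio centring and log2 of the signal plus 16, and 0 with the floor raised to the 75th percentile. The count of higher genes, also 2, became 1 with that floor and with probe sets without a suffix, among which Cd40 has none. Poly-A scaling, added after seeing the data, moved the median log2 ratio of all genes to 0.90 for LXR-DKO over WT with GM-CSF alone, 0.67 with LPS and -0.38 for the LPS response of LXR-DKO. Under it 1 gene instead of 2 was lower in LXR-DKO control, and 5 instead of 8 were higher and 1 instead of 0 lower with LPS in LXR-DKO. The difference of the responses of Icosl was 1.001 and became -0.66 with that higher floor, where both WT values are at the floor.

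For LXR-DKO over WT with LPS, the 9 genes kept their sign under all alternatives that gave a value. With GM-CSF alone 7 did; Cd80 ran between -0.23 and 1.19 and Tnfsf4 between -0.51 and 0.66. In the LPS response all kept it in LXR-DKO, and in WT all but Cd80, between -0.17 and 0.32. Signals near the floor limit Icosl, Tnfsf4 and Cd40 in WT.

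Over all genes, the counts varied more. With LPS, genes higher in LXR-DKO numbered 947 with the higher floor to 4215 with poly-A scaling (2141 in the main setting), and lower ones 408 to 1724 (1053). With GM-CSF alone they were 744 to 5548 (1487) and 360 to 1869 (1088). With LPS in LXR-DKO they were 324 to 1547 (735) and 114 to 1175 (215), and in WT 188 to 840 (336) and 150 to 1239 (548). The share of higher genes was 77.4% in LXR-DKO but 28.7% with poly-A scaling, and 38.0% in WT but 50.6% with 75th percentile scaling. For the difference of the responses the counts were 281 to 2225 (949) and 148 to 927 (258), and the share was 78.6%, but 39.5% with poly-A scaling.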

Other observations

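The receptors of the 9 ligands, most of which act on T cells, were measured in part. Icos, the receptor of the ICOS ligand, had signals of 316.9 in LXR-DKO LPS, 34.0 in LXR-DKO control, 64.7 in WT LPS and 29.7 in WT control, a log2 LPS ratio of 3.22 in LXR-DKO and 1.12 in WT. Cd28, the receptor of CD80 and CD86, was dimmer in LXR-DKO, at 54.6 with LPS and 36.0 without, against 461.6 and 544.8 in WT. Cd200r1, the myeloid receptor of CD200, had 1166.4 and 2276.8 in LXR-DKO with and without LPS, against 2135.1 and 3148.3 in WT. Tnfrsf4, the receptor of the OX40 ligand, had 161.6 and 192.1 against 107.6 and 142.2 in the same order, below 2-fold in every comparison. Pdcd1 and Ctla4 reached the floor in LXR-DKO LPS alone, at 38.9 and 34.9, and Cd40lg was below it on every array.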
